A study of Drosophila melanogaster with 14 samples.

Results

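The disc-associated myoblasts are the precursors of the flight muscles, and 6 genes known for their roles in these cells were followed through accessible chromatin of Drosophila melanogaster wing imaginal discs: twi, zfh1, Him, Mef2, htl and stumps. Accessible DNA was mapped with ATAC-seq, which uses a transposase to cut open chromatin and tag the fragments. Peaks of short, nucleosome-free fragments from all 14 libraries were merged wherever they overlapped or touched, and a merged region was given to the gene with the nearest annotated transcription start. Of 33226 regions, 49 belonged to the 6 genes: 14 to Mef2, 11 to htl, 10 to zfh1, 9 to stumps, 3 to Him and 2 to twi. They are numbered along each gene in the direction of transcription (zfh1-1 lies farthest upstream of zfh1).

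Regenerating discs, in which apoptosis had been induced, were collected at 0, 15 and 25 h. Control discs were kept in the same way with no cell death induced, and were collected at the same times. Undamaged larval discs outside that time course (L3) formed the last group. Each of the 7 groups had 2 libraries, each library was made from 10 discs, and all discs were labelled as from larvae of the third instar. The labels speak of a regeneration and a control genotype without naming the alleles or drivers, so damage and genotype cannot be told apart here. Replicates are only numbered, so the spread between them may be technical. Whole discs were used, so a region open in fewer cells and a region less open in each cell cannot be told apart, and the myoblasts were not separated from the epithelium.

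Myoblasts lie beneath the notum, the part of the disc that forms the body wall of the thorax, and multiply there until metamorphosis. Twist, a basic helix-loop-helix factor made by twi, and Zfh1, a zinc finger and homeodomain repressor, keep these cells undifferentiated, and Him, a nuclear protein that recruits a corepressor, holds back the differentiation factor Mef2, of the MADS-box family. Heartless, made by htl, is an FGF receptor that receives ligands from the epithelium, and the adaptor made by stumps carries its signal inside the cell.

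The sequences behind the main results are shown 5′ to 3′ on the strand of the gene, from the RefSeq genome of Release 6 (dm6). Each spans up to 100 bp either side of the strongest summit and ends at the region's edge. Capitals mark matches to the E-box CACATG, recognised by Twist, the E-boxes CAGGTG and CAGGTA, recognised by Zfh1, or CATATG, another Twist E-box, on either strand. zfh1-10 (plus strand, chr3R:30781884-30782084), zfh1-6 (plus strand, chr3R:30767126-30767326) and zfh1-7 (plus strand, chr3R:30772860-30773060) are shown as the 3 regions of highest rank. stumps-9 (plus strand, chr3R:14603203-14603403) ranked higher in regenerating than in control discs at each time. Him-1 (plus strand, chrX:18208153-18208353) and Him-2 (plus strand, chrX:18209008-18209208) hold repeated CACATG matches, as do zfh1-1 and zfh1-2, which are not shown. zfh1-8 (plus strand, chr3R:30773403-30773524), zfh1-3 (plus strand, chr3R:30761510-30761603) and htl-1 (minus strand, chr3R:18065414-18065564) were listed in both regenerating libraries of 1 time and in neither control of that time.
zfh1-10: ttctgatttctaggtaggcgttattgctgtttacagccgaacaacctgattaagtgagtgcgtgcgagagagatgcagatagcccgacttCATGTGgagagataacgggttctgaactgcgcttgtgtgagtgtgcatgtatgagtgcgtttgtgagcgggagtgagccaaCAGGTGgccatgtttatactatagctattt
zfh1-6: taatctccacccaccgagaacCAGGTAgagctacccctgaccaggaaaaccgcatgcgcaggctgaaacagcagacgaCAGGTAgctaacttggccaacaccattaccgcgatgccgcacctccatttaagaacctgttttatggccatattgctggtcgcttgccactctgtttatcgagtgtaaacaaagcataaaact
zfh1-7: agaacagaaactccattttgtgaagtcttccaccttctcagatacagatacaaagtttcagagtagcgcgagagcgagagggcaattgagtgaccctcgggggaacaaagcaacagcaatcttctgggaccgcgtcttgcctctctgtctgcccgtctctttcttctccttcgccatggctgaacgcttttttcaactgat
stumps-9: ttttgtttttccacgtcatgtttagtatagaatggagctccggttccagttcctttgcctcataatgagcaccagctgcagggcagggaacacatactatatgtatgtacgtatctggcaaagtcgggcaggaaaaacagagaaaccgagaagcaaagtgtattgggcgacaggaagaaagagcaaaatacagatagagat
Him-1: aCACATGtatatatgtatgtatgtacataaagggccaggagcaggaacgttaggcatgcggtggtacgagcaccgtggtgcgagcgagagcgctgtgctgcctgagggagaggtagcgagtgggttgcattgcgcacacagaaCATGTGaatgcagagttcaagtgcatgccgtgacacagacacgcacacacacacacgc
Him-2: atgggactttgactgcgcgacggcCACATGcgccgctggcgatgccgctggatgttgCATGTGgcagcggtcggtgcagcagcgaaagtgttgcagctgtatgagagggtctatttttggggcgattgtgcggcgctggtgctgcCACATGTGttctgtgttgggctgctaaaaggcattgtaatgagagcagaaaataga
zfh1-8: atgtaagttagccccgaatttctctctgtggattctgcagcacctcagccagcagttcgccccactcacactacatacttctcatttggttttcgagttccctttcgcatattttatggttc
zfh1-3: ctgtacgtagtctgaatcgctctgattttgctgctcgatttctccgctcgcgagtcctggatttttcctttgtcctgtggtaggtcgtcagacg
htl-1: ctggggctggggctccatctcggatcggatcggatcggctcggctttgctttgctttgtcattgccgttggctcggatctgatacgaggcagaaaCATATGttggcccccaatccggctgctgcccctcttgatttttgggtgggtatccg

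The libraries listed 19174 to 24139 nucleosome-free peaks and 11145 to 13387 mononucleosome peaks, the second kind from fragments long enough to span a nucleosome. Peak lists hold no read depth. A relative depth, the genome background in fragments, was solved from the deposited fold and p-value of each peak and lay between 1.62 and 3.67. Control replicate 1 of 0, 15 and 25 h had the 3 lowest backgrounds, 1.62, 2.27 and 2.46 fragments. Fold, p, q and score are the authors' own values. The fold enrichment was used as a percentile within its own list, with 100 for the strongest peak, and percentiles from lists of unequal length are given as description and not as change.

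Open regions at these 6 genes were found in undamaged and damaged discs alike. Of the 49 regions, 17 (34.7%) had a peak in all 14 libraries, beside 40.8% of all regions, and 9 (18.4%) had a peak in 1 library, beside 15% of all regions. Of the 17, zfh1 and Mef2 held 6 each, htl 4 and stumps 1, while no region of twi or Him was in every library. Single libraries had a peak in 22 to 37 of the 49 regions. The lowest number was in control 25 h replicate 1 (44.9%, beside 59.2% of all regions). The highest was in regenerating 0 h replicate 2 (75.5%, beside 70.1%). Over all regions the share ran from 54.9% in control 0 h replicate 1 to 70.1% in regenerating 0 h replicate 2.

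**Figure D1:**
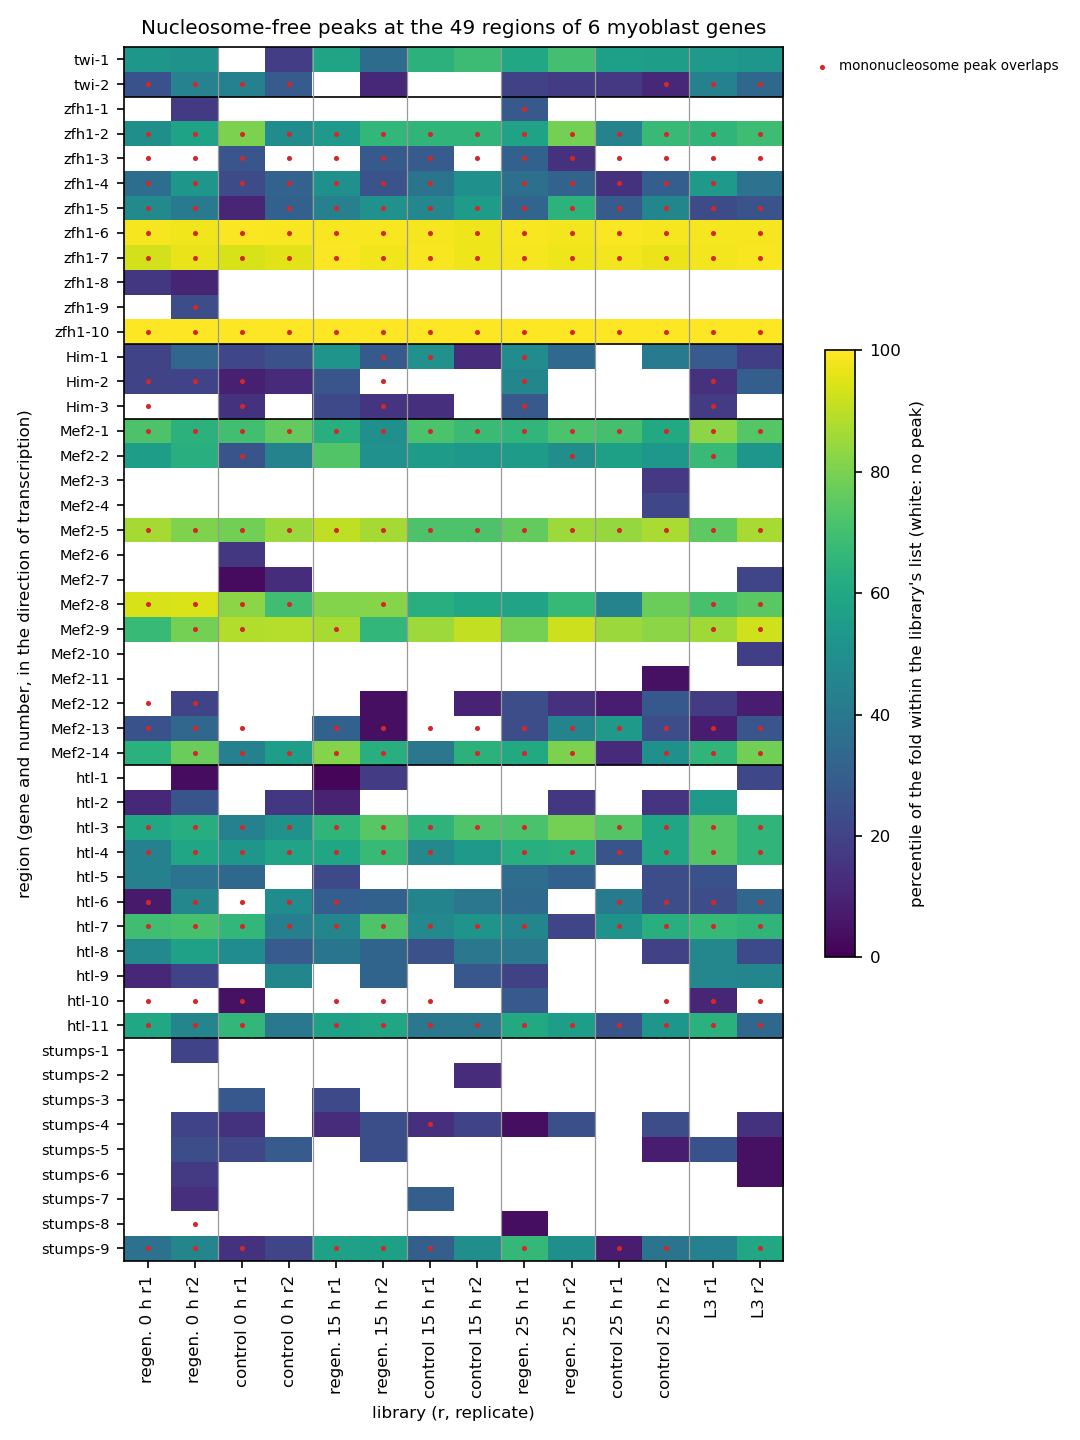
Percentile of the fold within each library's list (colour, white where no peak was listed) for the 49 regions (rows) in the 14 libraries (columns, each regenerating pair left of its control pair); red dots mark an overlapping mononucleosome peak. The 17 regions with colour in every column belong to zfh1, Mef2, htl and stumps, and the brightest row is zfh1-10.

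The strongest accessible sites of the set lay away from starts. Only 12 of the 49 regions (24.5%) lay within 200 bp of a start, beside 30.0% of all regions, and the median distance was 2036 bp, beside 1167.5 bp over all regions. Of the 17 regions in all libraries, 4 were within 200 bp of a start and 13 beyond. The summit fell in an intron in 26 regions, between genes in 17, in a 5′ UTR in 5 and in a coding exon in 1, and none overlapped an annotated transposable element. Genes with a region had a median of 2, and 2.26% of them had at least as many as the 14 of Mef2. The rule leaves parts of the loci out: 34 of the 35 regions in the annotated body of twi were nearest to CG42741 or CG9896, because 1 annotated twi start lies far upstream of the others.

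**Figure D2:**
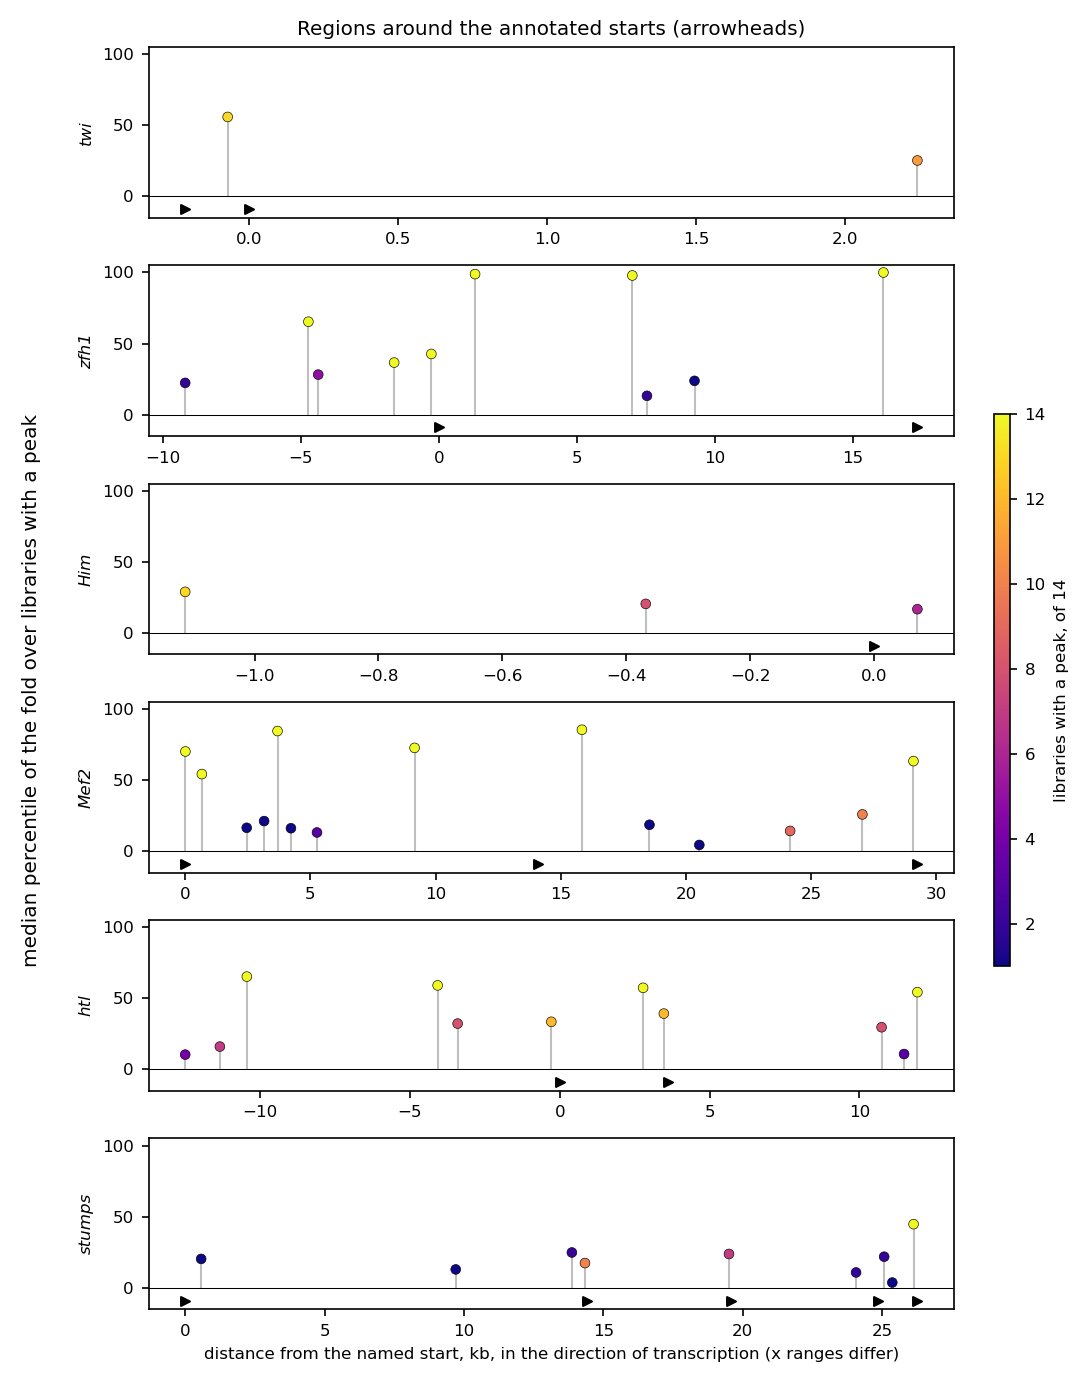
Regions of each gene by distance from a named start in kb (x axis, in the direction of transcription, with ranges that differ between genes) and median percentile of the fold over the libraries with a peak (y axis); colour gives the number of libraries and arrowheads the annotated starts. The 3 tallest stems, all of zfh1, stand away from its 2 starts.

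zfh1 had the most highly ranked regions of the 6 genes. zfh1-10 (3R, 30781873 to 30782183) lay in an intron, 1075 bp upstream of the second zfh1 start and also inside the antisense gene asRNA:CR45189, whose own start is 1462 bp away. By fold it was 14th, 24th, 15th, 36th, 39th and 10th in the lists of the 6 regenerating libraries at 0, 15 and 25 h. In the controls of these times it was 34th, 14th, 20th, 14th, 21st and 14th, and in the L3 libraries 17th and 14th. The groups overlapped, and a mononucleosome peak overlapped the region in every library. The pile-up at its summit was 152 to 202 fragments in regenerating, 89 to 192 in control and 156 to 168 in L3 libraries, with the lowest value in the shallowest library, control 0 h replicate 1.

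Both other high-ranking zfh1 regions were intronic as well. zfh1-6 (3R, 30767022 to 30767454) lay 1096 bp past the first start, at percentiles of 97.3 to 99.4 over the 14 libraries. zfh1-7 (3R, 30772765 to 30773102) lay 6839 bp past that start, at percentiles of 93.2 to 99.5. Both had an overlapping mononucleosome peak in all 14 libraries. The zfh1 start itself ranked lower: zfh1-5 (3R, 30765486 to 30765822, 104 bp upstream) was at percentiles of 32.7 to 64.5 in regenerating, 10.7 to 55.5 in control and 22.8 and 25.7 in L3 libraries. zfh1-2, 4617 bp upstream, and zfh1-4, 1476 bp upstream, were in all libraries at median percentiles of 65.3 and 36.6. zfh1-1 was listed in 2 libraries and zfh1-9 in 1.

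Mef2, on the minus strand of 2R, had open regions at 2 of its 3 starts and through its introns. Mef2-1 (2R, 9958775 to 9958925), at the start farthest upstream, was at percentiles of 50.1 to 72.0 in regenerating, 60.6 to 75.9 in control and 82.6 and 73.6 in L3 libraries. It lies 624 bp from the start of Pal1, the closest start of another gene to any of the 49 regions. Mef2-14 (2R, 9929599 to 9929944), at the start farthest downstream, was at 60.7 to 81.5 in regenerating, 11.9 to 64.4 in control and 65.6 and 78.8 in L3 libraries. Mef2-9 (2R, 9942935 to 9943091), in a 5′ UTR 1673 bp past the middle start, and Mef2-5 (2R, 9954844 to 9955497), in an intron, had the highest median percentiles of the gene, 85.4 and 84.5. Mef2-8 and Mef2-2 were also in all libraries, at medians of 72.6 and 54.2. Mef2-3, Mef2-4 and Mef2-11 were listed only in control 25 h replicate 2, Mef2-6 only in control 0 h replicate 1 and Mef2-10 only in L3 replicate 2.

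twi was open at its start in 13 libraries. twi-1 (2R, 23046160 to 23046341) was at percentiles of 53.1, 51.3, 58.5, 35.3, 59.8 and 70.0 in the regenerating libraries at 0, 15 and 25 h. In the controls it had no peak in 0 h replicate 1, the shallowest library, was at 18.1 in 0 h replicate 2 and lay between 55.8 and 68.4 at 15 and 25 h, and the L3 libraries were at 53.9 and 52.5. Both regenerating values were above the listed control values at 0 and 25 h and below both at 15 h. No mononucleosome peak overlapped twi-1 in any library. twi-2 (2R, 23048358 to 23048769), just past the end of the gene, was listed in 5 regenerating, 4 control and both L3 libraries, and among the controls it was missing from both of 15 h.

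Him, with 1 annotated start, had no region in every library. Him-1 (X, 18208138 to 18208492, 935 bp upstream) was at percentiles of 20.6 to 51.9 in the 6 regenerating libraries, 12.9 to 50.8 in 5 controls and 28.9 and 18.6 in L3, and was missing from control 25 h replicate 1. Him-2 (X, 18208842 to 18209275, 152 bp upstream) was listed in 4 regenerating libraries, in both 0 h controls but no later control, and in both L3 libraries. Its pile-up was only 9 to 22 fragments where it was listed. Him-3 (X, 18209377 to 18209617), at the start, was listed in 3 regenerating, 2 control and 1 L3 library. Control 25 h replicate 1 had none of the 3 Him regions.

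htl, the receptor gene, was open in every library only away from its starts. The regions nearest the htl starts were htl-6 (3R, 18053025 to 18053509, 41 bp upstream) and htl-8 (3R, 18049395 to 18049628, 29 bp upstream), each in 12 libraries, at median percentiles of 33.5 and 39.3. htl-6 was missing from regenerating 25 h replicate 2 and control 0 h replicate 1, and htl-8 from regenerating 25 h replicate 2 and control 25 h replicate 1. The 4 htl regions in all libraries lay between 535 and 10271 bp from a start: htl-3, htl-4, htl-7 and htl-11, at medians of 65.3, 59.1, 57.4 and 54.4. htl-2, htl-5, htl-9 and htl-10 were in 7, 8, 8 and 3 libraries.

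stumps has 5 annotated starts, and regions lay within 200 bp of 4 of them. stumps-9 (3R, 14603183 to 14603509), at the start farthest downstream, was in all libraries. stumps-4 (3R, 14591463 to 14591654) was in 5 regenerating, 4 control and 1 L3 library, stumps-5 (3R, 14596634 to 14596814) in 2 regenerating, 3 control and both L3 libraries, and stumps-7 (3R, 14602239 to 14602342), in a coding exon, in 1 regenerating and 1 control library. The other 5 stumps regions were in 1 or 2 libraries each.

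**Figure D3:**
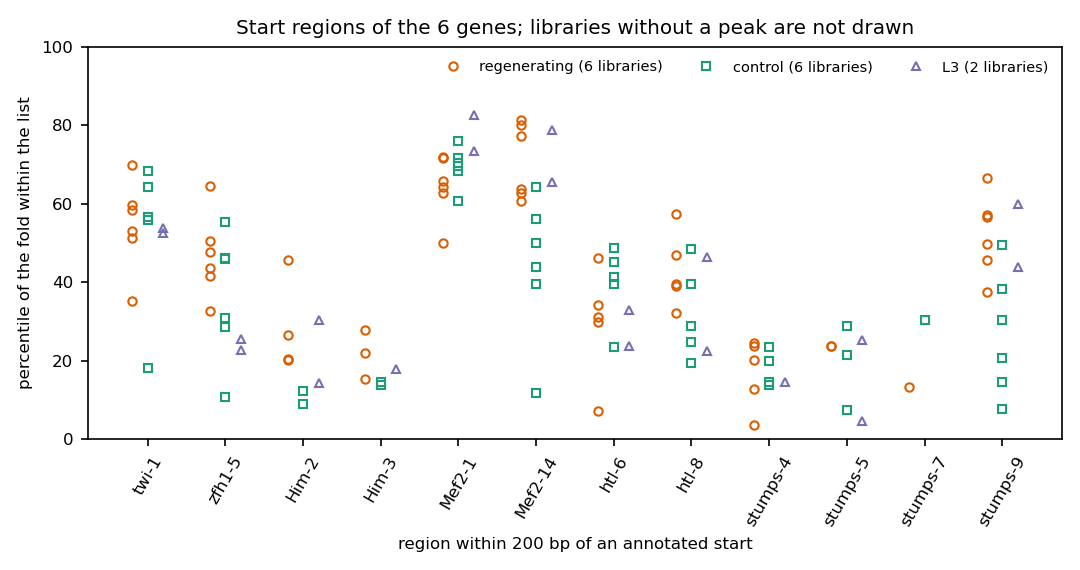
Percentile of the fold within the library's list (y axis) for the 12 regions within 200 bp of an annotated start (x axis), for regenerating (circles), control (squares) and L3 libraries (triangles); libraries without a peak are not drawn. stumps-7 and Him-3, which few libraries had, reached at most 30.3 and 27.8, and Mef2-1 reached 82.6.

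Mononucleosome peaks, from DNA wrapped once around histones, covered part of the set. They overlapped 30 of the 49 (61.2%) in at least 1 library, beside 70.6% of all regions, and 7 (14.3%) in all 14, beside 30.6%. Among regions with a nucleosome-free peak in every library the shares were 6 of 17 (35.3%), beside 60.6%. The 6 were zfh1-2, zfh1-6, zfh1-7, zfh1-10, Mef2-1 and Mef2-5. The other region with a mononucleosome peak in every library was zfh1-3, whose nucleosome-free peak was listed in only 5.

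At each time the regenerating discs were set against the controls of that time. This asks whether access to these genes differed between them, with damage and genotype not told apart. A region counts as gained if both regenerating libraries and neither control had a peak, and as lost if the reverse held. At 0 h 2 of the 31 member regions in at least 2 of the 4 libraries were gained (6.45%, where 5.41% of all such regions were) and 1 was lost (3.23%, where 0.834% were). At 15 h 2 of 28 were gained (7.14%, beside 3.19%) and 0 lost (beside 2.54%). At 25 h 1 of 28 was gained (3.57%, beside 5.27%) and 0 lost (beside 1.33%). These shares rest on 1 or 2 regions each. Leaving out 1 library, so that 1 peak suffices in its group, gave 4 to 12 member regions gained or lost at 0 h, 3 to 6 at 15 h and 2 to 7 at 25 h. Over all regions the same step gave 1983 to 3203 gained and 341 to 1356 lost at 0 h, 1218 to 2446 gained and 968 to 2254 lost at 15 h, and 1925 to 3021 gained and 569 to 1290 lost at 25 h. The direction among members moved with the library: 6 were gained and 6 lost without control 0 h replicate 2, and 1 was gained and 4 lost without control 25 h replicate 1. Over all regions more were gained than lost in both settings, 3203 against 684 in the first and 1925 against 1290 in the second. No region of twi, Him or stumps was gained or lost at any time.

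Mef2-13 (2R, 9931565 to 9932058), in a Mef2 intron 1950 bp upstream of the last start, was gained at 0 and at 15 h. In the regenerating libraries its pile-up was 16 and 21 fragments directly after damage, 17 and 12 at 15 h, then 16 and 26. The controls listed no peak at 0 or 15 h and had 23 and 16 fragments at 25 h, and the L3 libraries had 13 and 17. The region was thus in all 6 regenerating, 2 control and both L3 libraries, and the 25 h groups overlapped. A mononucleosome peak overlapped it in every library except control 0 h replicate 2. In this region the exact permutation test of presence, with labels exchanged within each time, gave p = 0.0556 and an adjusted p of 1, and 0.0556 is the smallest value that a region informative at 2 times can give.

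The other calls rested on 12 to 21 fragments a library. zfh1-8 (3R, 30773403 to 30773524), in a zfh1 intron, was listed only in the regenerating libraries of 0 h, with 14 fragments in each and percentiles of 16.2 and 10.3. zfh1-3 (3R, 30761510 to 30761603), 4323 bp upstream of zfh1, was gained at 25 h with 19 and 16 fragments, but was also listed in regenerating 15 h replicate 2, control 0 h replicate 1 and control 15 h replicate 1. htl-1 (3R, 18065414 to 18065564), 12430 bp upstream of htl, was gained at 15 h with 12 and 18 fragments, and was also in regenerating 0 h replicate 2 and L3 replicate 2. Mef2-7 (2R, 9953509 to 9953679), in an intron, was lost at 0 h, with 13 and 21 fragments in the 0 h controls, and was otherwise listed only in L3 replicate 2. None of the 6 calls passed a filter that asks whether the weaker peak, at the depth of a library without it, would still have reached that library's lowest listed p. Most calls over all regions failed it too: 163 gained and 63 lost regions passed at 0 h of 1200 and 185, 100 and 198 at 15 h of 732 and 582, and 330 and 97 at 25 h of 1172 and 295.

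**Figure D4:**
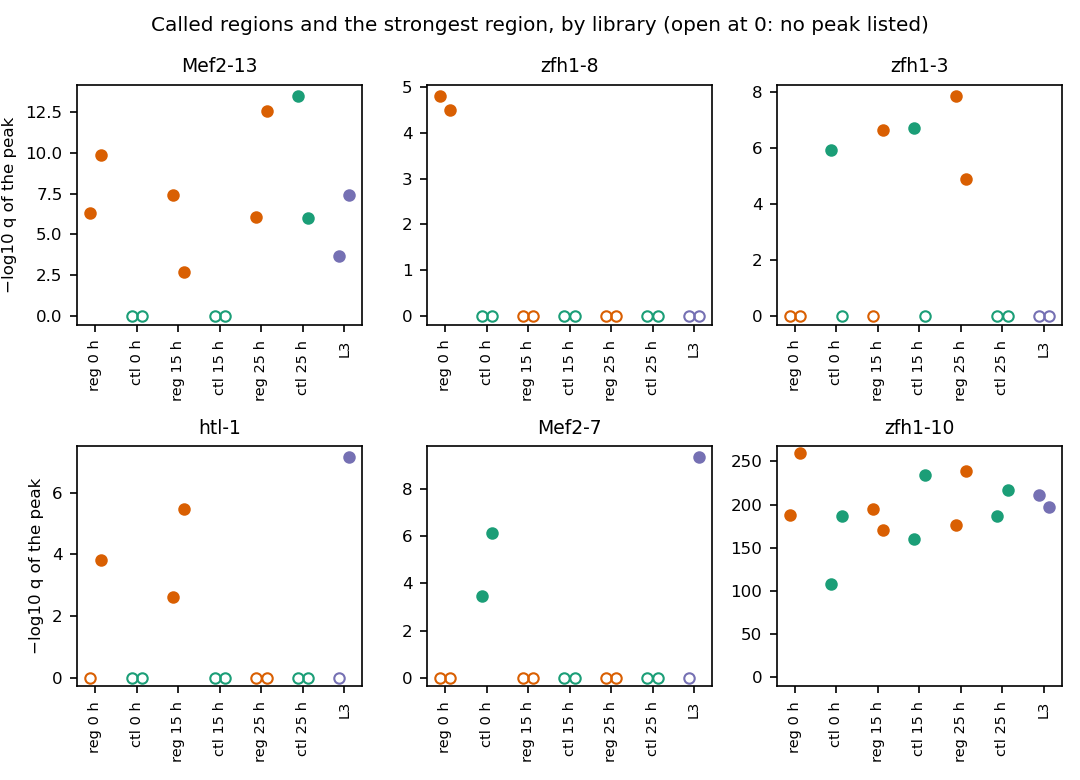
The −log10 q of the peak (y axis, ranges differ) in each library, by group (x axis, regenerating left of control at each time), for the 5 regions gained or lost and for zfh1-10; open symbols at 0 mark libraries with no peak listed. The peaks of the 5 gained or lost regions lie between 2.61 and 13.5, and Mef2-13 is filled again in both controls of 25 h.

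Over the 3 times together, presence was tested in 31 member regions that were neither in all nor in none of the 12 libraries. The test was the exact two-sided permutation test, whose smallest p was 0.00926. None had an adjusted p under 0.05 after Benjamini-Hochberg adjustment over 18797 regions, and none had an unadjusted p under 0.05, beside 241 of all regions tested (1.28%). The adjusted test called 0 of all 18797 regions as well, so a count of 0 at the members does not set them apart.

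For the 17 member regions in all libraries, strength was compared by ranking the fold among the 13545 regions that all 14 libraries shared. The ranking sets aside the unequal list lengths but not the unequal depth. This comparison was added after the values had been seen. No region had an adjusted p under 0.05 by the exact permutation test over the 3 times, in the members or over all shared regions, where the lowest adjusted p was 0.296. At an unadjusted p under 0.05, 2 members ranked higher in regenerating discs, beside 4.53% of all shared regions, and 0 ranked lower, beside 5.07%. Of the 17, 12 had a higher and 5 a lower mean in regenerating discs, with a median difference of 4.79 percentile points beside -0.23 over all shared regions. The share of all shared regions with a higher mean was not counted. The 17 are regions of zfh1, Mef2, htl and stumps only, read in the same libraries, and are not independent of each other.

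stumps-9, at the last start of the FGF adaptor gene, was the one member that ranked higher in regenerating discs at all 3 times with no overlap between the groups. Its percentiles among shared regions were 16.2 and 19.4 in regenerating and 5.98 and 6.99 in control discs at 0 h. In 15 h discs they were 36.04 and 31.2 in regenerating and 13.5 and 24.4 in control libraries. In 25 h discs they were 46.0 and 25.3 in regenerating and 1.92 and 16.1 in control libraries. Over all shared regions 1.49% were likewise higher without overlap at each time and 1.63% lower. The means were 29.0 ± 11.1 in regenerating and 11.5 ± 8.17 in control discs (SD, n = 6 each), a difference of 17.5 points with exact permutation p = 0.00926, the smallest the design allows, and adjusted p = 0.296. The L3 libraries were at 17.6 and 39.7 and overlapped both groups. Some control peaks of stumps-9 were weak. With peaks of −log10 q of at least 5 it was listed in 6 regenerating but 4 control libraries. With lists cut to an equal length these numbers were 6 and 4 as well.

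Mef2-14, at the last Mef2 start, showed the largest mean difference of the 17. It was at 44.7 and 60.7 in regenerating and 27.6 and 35.9 in control libraries of 0 h discs. For 15 h the values were 70.7 and 39.0 in regenerating and 20.4 and 42.0 in control discs, and for 25 h 38.0 and 66.6 in regenerating and 3.21 and 27.7 in control discs. The groups overlapped at 15 h only. The means were 53.3 ± 14.5 in regenerating and 26.1 ± 13.5 in control discs (SD, n = 6 each; exact permutation p = 0.0185, adjusted p = 0.362), and the L3 libraries were at 42.8 and 66.3. Without control replicate 1 of all 3 times, the libraries of lowest background, the difference fell to 18.1 points for Mef2-14 (exact permutation p = 0.148) and 13.2 for stumps-9 (exact permutation p = 0.0741). That leaves 1 control at each time and fewer label orders, so the smallest p the test can give is higher than with all libraries. An unadjusted p under 0.05 could still be reached: 1085 of the 13545 shared regions had one in this setting, and 0 of the 17 members. Leaving out control 15 h or 25 h replicate 1 alone put Mef2-14 at exact permutation p = 0.0556. The pile-up at Mef2-14 was 28 to 50 fragments in regenerating and 12 to 35 in control libraries, with the lowest value in control 25 h replicate 1.

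The next largest differences had p-values above 0.05. Mef2-9 averaged 64.6 ± 16.5 in regenerating and 79.3 ± 4.72 in control discs, and Mef2-8 66.8 ± 22.4 in regenerating and 49.8 ± 18.7 in control discs (SD, n = 6 each; exact permutation p = 0.0926 for both, adjusted p = 0.586). The 3 strongest regions sat near the top of this scale, where a rank leaves little room to differ: zfh1-10 averaged 99.8 ± 0.0898 in regenerating and 99.9 ± 0.0548 in control discs, with exact permutation p = 0.509 (SD, n = 6 each). For zfh1-6 the p was 0.815 and for zfh1-7 0.889 by the same exact permutation test.

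**Figure D5:**
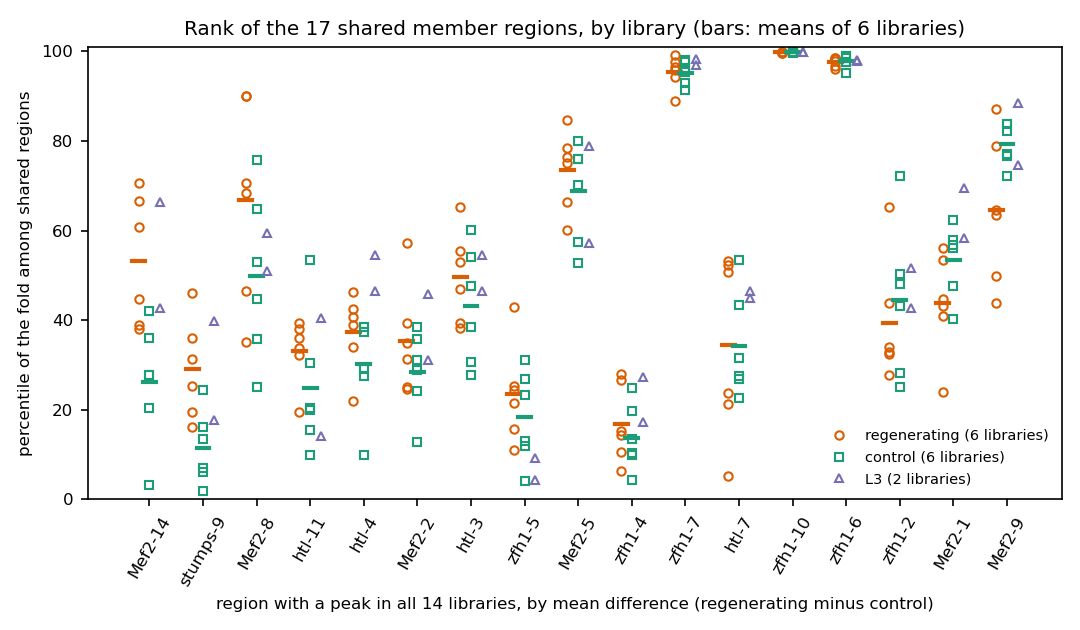
Percentile of the fold among the 13545 shared regions (y axis) for the 17 member regions in all libraries (x axis, ordered by the mean difference of regenerating minus control), with each of 6 regenerating (circles), 6 control (squares) and 2 L3 libraries (triangles); bars are means. Mef2-14 and stumps-9 stand at the left with means of 53.3 and 29.0 in regenerating against 26.1 and 11.5 in control discs, and the 3 zfh1 regions near the top have overlapping points.

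Between times and stages, each share is of the regions in at least 2 of the libraries compared. Of 29 such member regions, 4 had a peak in neither 15 h control and in both 0 h controls (beside 1.06% of 21845 regions): Mef2-7, twi-2, stumps-5 and Him-2. None showed the reverse (beside 4.52%). At 25 h against 15 h, Mef2-13 and twi-2, of 25 member regions, were in both 25 h controls and neither 15 h control (beside 1.12%), with none the other way (beside 4.17%). At 25 h against 0 h, with 30 member regions, Mef2-12 and Mef2-13 were in the 25 h controls alone (beside 3.37%) and Mef2-7 and Him-2 in the 0 h controls alone (beside 2.23%). Within regenerating discs, with 32 or 33 member regions in each comparison, 15 h against 0 h gave Him-3 in the 15 h pair alone (beside 2.67%) and zfh1-8 in the 0 h pair alone (beside 3.03%), and 25 h against 15 h gave htl-1 in the 15 h pair alone (beside 2.07%) and no region in the 25 h pair alone (beside 2.34%). From 0 to 25 h of regeneration, zfh1-3 was in the 25 h pair alone (beside 2.21%) and zfh1-8 in the 0 h pair alone (beside 2.37%). These comparisons share libraries with each other. Against L3 discs, with 33 member regions, the regenerating 25 h pair had zfh1-3, which L3 lacked (beside 3.34%), and lacked stumps-5, which both L3 libraries had (beside 3.45%). No member was in both L3 libraries and none of the 6 controls (beside 0.667%), or in all 6 controls and neither L3 library (beside 0.0559%).

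Matches to E-boxes and other motifs were counted within 100 bp of the strongest summit, a window of 201 bp that can reach past a narrow region. CACATG stood in 9 of the 49 windows (18.4%), beside 12.1% of all regions, and CATATG in 3 (6.12%, beside 6.03%). CACATG read on the other strand is CATGTG, so the 8 letters CACATGTG count as an overlapping pair of matches, as in Him-2 above. CAGGTG was in 4 windows (8.16%, beside 8.38%) and CAGGTA in 2 (4.08%, beside 5.75%). TGGGAA, the core bound by Su(H) of the Notch pathway, and GGAATG, bound by the TEAD factor Scalloped, were each in 5 windows (10.2%, beside 10.8% and 9.72%). The AP-1 letters TGACTCA, read as TGAGTCA on the other strand, and the Mef2 motif were in none, beside 2.48% and 1.58% of all regions.

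All 6 genes had a peak within 200 bp of a start in most libraries: 14 for zfh1, Mef2 and stumps, 13 for twi and htl, and 10 for Him. Other genes of the pathway, from lists chosen with earlier results of these data known, were read in the same way. Of 17 genes of FGF ligands and signalling, 14 had a start peak in all libraries, among them both ligand genes of Heartless, pyr and ths, and 5 of the 16 with a region had one gained and 3 one lost. The same counts were 15 of 18, 4 of 17 and 1 of 17 for myoblast fusion genes, 9 of 19, 4 of 17 and 3 of 17 for other myogenic factors, and 8 of 27, 9 of 20 and 3 of 20 for contractile and attachment genes. Over all 13945 protein-coding genes 37.8% had a start peak in all libraries, and of those with a region 18.3% had one gained and 7.38% one lost, beside 3 and 1 of the 6 myoblast genes.

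Marker genes of the epithelium, which makes up most of the disc, had a start peak in all libraries in 17 of 17, those of trachea in 7 of 8 and those of hemocytes in 3 of 11, while none of 9 genes of other tissues had one in any library. Of the epithelial markers 10 of 17 had a region gained and 6 a region lost, larger shares than in the 6 myoblast genes. The counts were 2 and 3 of 8 for trachea, 3 and 0 of 9 for hemocytes with a region, and 0 and 0 of 1 for the other tissues. These shares, like those of the lists above, take no account of the number of regions per gene. More regions give more chances of a call. Genes with a region had a median of 2, the 6 myoblast genes had 2 to 14, and the epithelial markers 2 (tsh) to 46 (hth). The marker genes show which starts were open, not how many cells of each kind were present, and their part in the values above was not tested.

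The genes whose pattern was most like that of the 6 were found from the mean percentile over a gene's regions in each of the 14 libraries, with a missing peak set to 0. Among 3778 genes with at least 3 regions, the highest Pearson r was 0.86 for Hsp26, then 0.83 for rk and Cyp4c3 and 0.82 for fog and CG13481. The median gene was at 0.272, and the number of peaks in the list gave 0.623, a quantity that all genes of a library share.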

How the data were processed

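ATAC-seq peak lists of 14 wing disc libraries were analysed, 1 nucleosome-free and 1 mononucleosome list per library, called per library. STAR 2.4.0j, MACS2 and dm6 are named in the submitters' processing notes, and other settings were not stated in the sources used here. The authors deposited for each peak a fold enrichment (a ratio over the caller's background), −log10 p and −log10 q values, a score and a summit position. The deposited mononucleosome lists carry peak names that read nucleosome-free, but their narrowest peaks are 211 to 216 bp wide, against 75 to 79 bp, and they were used as mononucleosome lists.

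Peaks were merged and assigned to starts of Ensembl release 115 (BDGP 6.54) with pandas 2.3.3, scipy 1.17.1 and numpy 2.4.6 under Python 3.11.15, and drawn with matplotlib 3.10.9. Pile-up and local background were solved from fold and p under the caller's Poisson model, with a tolerance of 0.001 on log10 p, and carry counting error only. Tests were exact permutations within time, Benjamini-Hochberg adjusted over all regions, and were tested on simulated data. The members, lists and tests were chosen with earlier results of these data known. Regions were described singly if within 200 bp of a start, gained or lost, or among the 5 others of highest median percentile, and others were added after their values were seen. The tracheal list matched 8 of 9 symbols. Sequences on 2R are not shown. Alternatives were a −log10 q of at least 5, equal list lengths, peaks covering at least 50% of a region, protein-coding starts, left-out libraries, a replicate block, mononucleosome peaks and a depth filter.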

Additional observations from a re-analysis of the deposited data

How the results depend on the processing

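The counts of gained or lost regions, 3 at 0 h, 2 at 15 h and 1 at 25 h, depended on most settings. With peaks of −log10 q of at least 5 the count at 15 h was 0, and with that limit only on the peaks of the called pair the counts were 1, 0 and 0. With lists cut to an equal length of 19174 peaks the counts at 15 and 25 h were 0 and 0, and the 3 regions at 0 h were 1 gained and 2 lost, in place of 2 gained and 1 lost. When peaks had to cover at least 50% of a region the counts were 7, 1 and 4, all gained. With protein-coding starts only the count at 25 h was 2. With mononucleosome peaks the number of member regions was 26, and the counts at 0 and 15 h were 1 and 0, while the 1 region at 25 h was lost, where the nucleosome-free one was gained. Under all the settings named so far, gained and lost regions were not counted over all regions. These member counts therefore have no whole-series share beside them. With the depth filter, chosen after seeing the data, the counts were 0, 0 and 0, and over all regions 163, 100 and 330 gained and 63, 198 and 97 lost regions passed. Without 1 library, where the criterion is looser, the counts were 4 to 12 at 0 h, 3 to 6 at 15 h, 2 to 7 at 25 h and 0 to 3 for L3 against controls, the 3 without L3 replicate 1. For L3 against controls without 1 library, regions were not counted over the whole series, so that count has no share beside it. At 0 h the count was 10 without regenerating replicate 1, beside 3158 gained and 341 lost over all regions. It was 12 (6 gained, 6 lost) without control replicate 2, beside 3203 gained and 684 lost over all regions. At 15 h it was 4 without regenerating replicate 1, 6 without regenerating replicate 2 and 4 without control replicate 1. At 25 h it was 2 and 7 without regenerating replicate 1 and 2, and 5 (1 gained, 4 lost) and 4 without control replicate 1 and 2. Over all regions 1925 were gained and 1290 lost at 25 h without control replicate 1. The count of members in the presence test and in the rank test was 0 under every alternative run. The count over all regions tested was 0 under each of them too, so the members are not set apart by it. For the rank test, 1 to 4 members had an unadjusted p under 0.05 when 1 library was left out, beside 1074 to 1329 of all 13545 shared regions. Without control replicate 1 of all times 0 members had one, beside 1085 of all shared regions. The last setting has fewer label orders, which raises the smallest p it can give. Deviations of same-numbered libraries correlated at r = -0.0153, 0.0395 and -0.00240 at 0, 15 and 25 h. Same-numbered libraries still shared a side in depth, since replicate 1 had the lower background in every time-course group. At 0 h the backgrounds of replicates 1 and 2 were 2.86 and 3.10 fragments in regenerating and 1.62 and 2.83 in control discs. With the replicate block (exact sign-flip permutation over 6 pairs) 0 members were called. The smallest p this exact test allows is 0.03125, which stumps-9 reached in rank, and the exact permutation p of Mef2-14 was 0.0625. The cause of these changes was not tested. Presence counts depended on the listing threshold: at −log10 q of at least 5, 22 of the 49 regions were in fewer libraries and 27 in the same number. This was not counted over all regions, so it does not set the members apart.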
